A study of Mus musculus with 2 samples.

Results

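The clustered protocadherin locus of the mouse was examined through the enrichment peaks of 2 libraries of E14 cells, a line of pluripotent mouse embryonic stem cells. One culture was transfected with a short hairpin RNA against GFP (shGFP, 1 library), a target these cells do not normally carry, and the other with a hairpin against Dnmt3L (shDnmt3L, 1 library). No time after transfection is given in the labels. Dnmt3L has no catalytic activity of its own and works as a cofactor of the de novo methyltransferases Dnmt3a and Dnmt3b, and the series was made to examine DNA methylation when it is targeted. The level of Dnmt3L itself was not analysed here.

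The members were the peaks of either deposited list that overlapped chromosome 18 from 37.05 to 38.01 Mb on the mm9 build, 68 of 100871 peaks in all. Of these, 21 came from the 55292 peaks of shGFP and 47 from the 45579 peaks of shDnmt3L. The locus was chosen by a measured value, the ratio of the libraries' peak numbers, which was higher there than in other windows of 1 Mb. The differences between the libraries below are therefore descriptions, with no test and no p-value, and with 1 library a group no value has a replicate error. Approximate bounds on mm9 placed the alpha array at 37.09 to 37.36 Mb, the beta array at 37.42 to 37.69 Mb and the gamma array at 37.8 to 38.01 Mb. Each peak was placed in an array by its midpoint. The 1 Mb on either side served as background.

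Clustered protocadherins are cadherin-like adhesion proteins with a single membrane span, best known from neurons, where each cell uses its own combination of them and so gains a surface identity. Most are encoded by a large first exon with a promoter of its own. In the alpha and gamma arrays this variable exon is spliced to constant exons at the end of the array, whereas beta genes are made of 1 exon each. DNA methylation of these promoters, laid down in part by Dnmt3b, and binding of CTCF take part in choosing which of them is active.

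A RefSeq gene table of another build, GRCm38, was used for names and gene order only. It listed 58 genes in the 3 arrays, all on chromosome 18. The alpha array held 14, from Pcdha1 to Pcdhac2, and the beta array 22, from Pcdhb1 to Pcdhb22. The gamma array held 22, from Pcdhga1 to Pcdhgc5, made up of 12 of type A, 7 of type B and 3 of type C. The gene table marked 21 of these 22 as protein-coding. Zmat2 lay before the alpha array, Slc25a2 and Taf7 between beta and gamma, and Diaph1 after gamma. No coordinates were converted between builds, so no peak was assigned to a gene, exon or promoter, and the array bounds could not be checked against an annotation of mm9.

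The sources disagree on what was captured. Sample titles read MeDIP and the design text gives 5mC, but per the labels' protocols the pull-down used Hydroxymethyl Collector, a kit for 5-hydroxymethylcytosine. The term enrichment peaks leaves the modification unnamed for that reason. Each peak carries a score from the authors' peak caller, whose lowest values of 50.01 in shGFP and 50 in shDnmt3L match −10 times log10 of a p of 1e-05. Scores rank peaks within 1 list and are not compared between the lists. Read depth is unknown. Over the whole lists, shDnmt3L had fewer peaks than shGFP (0.824 times as many) that were wider (median 2376 bp against 1998 bp) and covered 1.05 times the length.

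In the control library the interval as a whole was poorer in peaks than its flanks, and in the shDnmt3L library it was richer. The shGFP list held 21 peaks in the interval (exact 95% Poisson interval 13.0 to 32.1, counting error only), or 2.19 per 100 kb, against 4.55 per 100 kb in the flanks. The shDnmt3L list held 47 (34.5 to 62.5), or 4.90 per 100 kb, against 3.90 in the flanks. Peaks covered 45.3 kb of the interval, or 4.72%, in shGFP and 152.7 kb, or 15.9%, in shDnmt3L, a ratio of 3.37. In the flanks the covered shares were 9.77% and 10.2%, a ratio of 1.04.

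The flanks were close to the whole lists, with 0.857 times as many peaks in shDnmt3L as in shGFP. The left flank held 38 peaks in shGFP and 35 in shDnmt3L, and the right flank 53 and 43. The nearest pairs outside the interval had like widths in both libraries. The last peak pair before the interval, from 36954855 in shGFP and 36954823 in shDnmt3L, was 3800 bp wide in shGFP and 3690 bp in shDnmt3L. The first pair beyond it, from 38011980 and 38011948, was 3506 and 3669 bp wide. Within the interval, the first shDnmt3L peak ran from 37089173 to 37092959 and the last ended at 37977998.

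**Figure D1:**
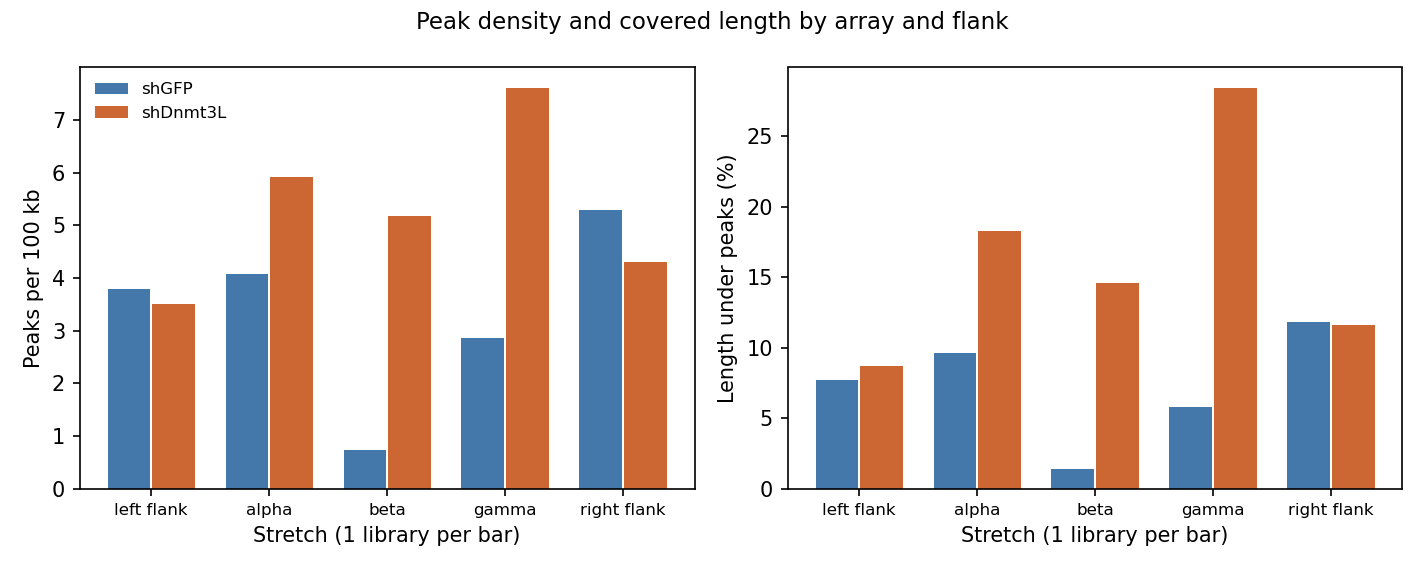
Peaks per 100 kb (left) and percent of length under peaks (right) in the left flank, the alpha, beta and gamma arrays and the right flank, with 1 bar per library. The libraries are close in the flanks, and the largest ratio is in the beta array, with 0.741 peaks per 100 kb in shGFP and 5.19 in shDnmt3L.

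The 3 arrays differed in how far the libraries were apart. The alpha array held 11 shGFP and 16 shDnmt3L peaks, a ratio of 1.45 (exact 95% interval 0.634 to 3.47), with 26.0 and 49.3 kb covered. The beta array held 2 and 14 peaks, a ratio of 7 (1.61 to 63.5), with 3.70 and 39.4 kb covered. The gamma array held 6 and 16 peaks, a ratio of 2.67 (0.991 to 8.32), with 12.2 and 59.8 kb covered. These intervals cover counting error only, and those of alpha and gamma include 1. They make no test, because the locus was chosen by its ratio of peak numbers. The ratio over the whole lists was 0.824, not 1. With peaks scoring 100 or more only, the ratio of peak number was 3 in beta and 15 in gamma, so the order of these arrays turned. The gamma ratio then rested on 1 shGFP peak. In shGFP the alpha array was the best covered of the 3, at 9.64% of its length, and the beta array the least, at 1.37%. In shDnmt3L the order was gamma at 28.4%, alpha at 18.3% and beta at 14.6%. The stretch between beta and gamma held 2 shGFP peaks of 1902 and 1131 bp, which 1 shDnmt3L peak of 3429 bp joined. It was the only 1 of the 47 shDnmt3L peaks to overlap 2 or more shGFP peaks, against 3.27% of the whole list. No peak of either library had its midpoint between alpha and beta.

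Windows of 250 kb set the locus beside the genome. The locus was chosen by its ratio of peak numbers, so these counts describe it and support nothing further. Of the 4 windows from 37000001 to 38000000, 3 had at least 2 times as many peaks in shDnmt3L as in shGFP, against 0.975% of the 5233 windows in which the lists together had 5 or more peaks. The same 3 had at least 2 times the covered length, against 3.65% of the windows, and 5 or more shDnmt3L peaks without a shGFP peak, against 2.08%. The window outside this set was the first, over the start of the alpha array, with 9 and 13 peaks and 22.6 and 40.2 kb.

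**Figure D2:**
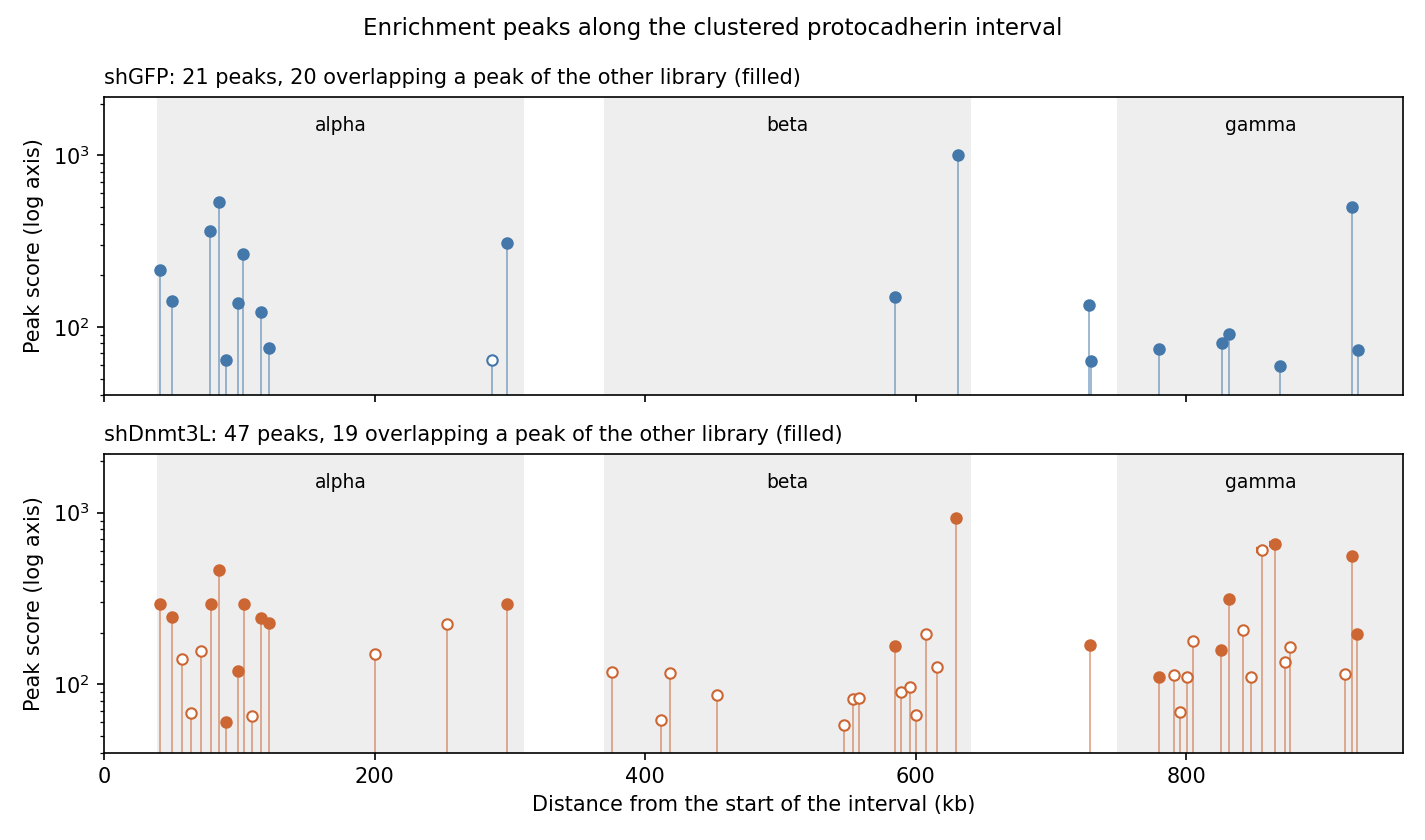
Each peak of the interval by its distance from the start of the interval (kb) and its score (log axis, to be read within 1 library), shGFP above and shDnmt3L below, with the arrays shaded. Filled points overlap a peak of the other library and open points do not. All but 1 of the 21 shGFP peaks are filled, and 28 of the 47 shDnmt3L peaks are open.

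Nearly all control peaks of the locus were found again. Of the 21 shGFP peaks, 20 overlapped a shDnmt3L peak, and 1 (4.76%) did not, against 25.5% of the whole shGFP list. In the flanks 23 of 91 shGFP peaks had no partner. The exception lay near the end of the alpha array from 37336021 to 37337458, was 1438 bp wide and scored 64.45, at percentile 22.7 of its list. Its nearest shDnmt3L peak was 9371 bp away.

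The shDnmt3L peaks, in turn, mostly had no control peak under them. Of the 47, 28 (59.6%, Wilson 95% interval 45.3 to 72.4%, counting error only) overlapped no shGFP peak, against 12.6% of the whole shDnmt3L list and 11 of 78 (14.1%) in the flanks. This share largely follows from peak number, by which the locus was chosen, since only 21 shGFP peaks were there to overlap. It describes the same difference and is no separate support. The number was 6 of 16 in alpha, 12 of 14 in beta and 10 of 16 in gamma. These unshared peaks were a median of 2866 bp wide, from 2254 to 8888 bp, where unshared peaks of the whole list had a median of 2474 bp. The 11 unshared shDnmt3L peaks of the flanks had a median of 2903 bp, so this width was not particular to the locus. Scores in the locus ran from 58.09 to 605.7 with a median of 114, against 74.9 for unshared peaks of the whole list and 97.5 in the flanks. The 19 shared shDnmt3L peaks of the locus had a median score of 245 and a median width of 3340 bp, against 103 and 2366 bp for shared peaks of the whole list.

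Most of the added length lay in peaks absent from the control list. The shDnmt3L peaks of the interval covered 43.1 kb that shGFP peaks also covered and 109.6 kb that they did not. Of the latter, 88.3 kb (80.6%) was in the 28 unshared peaks and 21.3 kb was extra length of shared peaks. The unshared part was 76.9% in alpha, 90.2% in beta and 76.1% in gamma. It was 76.7% in the left flank and 47.2% in the right, so the share in alpha and gamma was close to that of the left flank. The length covered only by shGFP was 2.18 kb, all of it in the alpha array, whereas in the flanks it was 46.6 kb.

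In the alpha array, whose genes begin with Pcdha1, the peaks of the first 90 kb formed an evenly spaced row. All 13 shDnmt3L peaks of this stretch lay between 37089173 and 37173686, a span of 84.5 kb. The distance from one midpoint to the next was 4.42 kb at the least, 6.71 kb at the median and 9.40 kb at the most, with a coefficient of variation of 0.203. Windows of 90 kb with 10 or more shDnmt3L peaks elsewhere and here, 401 in all, had a median coefficient of 0.596 (quartiles 0.484 and 0.711). The stretch of 90 kb and this comparison were chosen after the values were seen. In shGFP the same row had 9 peaks, with distances from 4.40 to 28.3 kb and a coefficient of 0.777.

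All 9 of those control peaks had a shDnmt3L partner, and the 4 added shDnmt3L peaks filled gaps in the row. Of these, 3 followed each other from 37105737 to 37122951, in the widest gap of the control row, 25.1 kb between the peaks ending at 37101409 and starting at 37126506. The fourth lay between control peaks from 37158182 to 37160906 and scored 65.77. The peak from 37119936 to 37122951, the second-best unshared peak of the array, measured 3016 bp and scored 156.4. The best shared shDnmt3L peak of the array, from 37133427 to 37136480, scored 462.6, with 86.4% of its length under a shGFP peak.

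Beyond the row, the rest of the alpha array held 3 isolated shDnmt3L peaks. The first, from 37248756 to 37252338, was 3583 bp wide, scored 150.4 and lay 75753 bp from the nearest shGFP peak. The next, from 37301005 to 37306200, was the widest of the array with 5196 bp and the best-scoring unshared one with 223.2, at percentile 83.4 of its list. The last overlapped a shGFP peak, with widths of 2425 bp in shDnmt3L and 2262 bp in shGFP and scores of 294.1 and 309.4. In shGFP the middle 90 kb of the array had no peak.

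In the beta array, which holds the Pcdhb genes of 1 exon each, the control library had only 2 peaks, both in the last 90 kb. They were 1863 and 1832 bp wide and scored 149.9 and 1004. The second, from 37680719 to 37682550, stood at percentile 99.5 of the shGFP list. In shDnmt3L its partner from 37677602 to 37682634 measured 5033 bp, the widest peak of the array, with a score of 932.6 at percentile 99.2, and 36.4% of it lay under the shGFP peak.

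The other 12 beta peaks of shDnmt3L had no control peak. They formed a run of 7 neighbouring unshared peaks from 37423971 to 37609344 and, after 1 shared peak, another of 5 from 37638024 to 37666858. The whole shDnmt3L list held 4 runs of 7 or more and 25 runs of 5 or more. The run of 7 lay in a stretch of 284.8 kb without any shGFP peak, from 37349120 to 37633882, and its peak from 37501911 to 37504243 was 129639 bp from the nearest shGFP peak. The best-scoring unshared beta peaks ran from 37656176 to 37659663 (195.6), from 37664223 to 37666858 (125.6) and from 37423971 to 37426797 (117.5). Their widths were 3488, 2636 and 2827 bp. Scores of the unshared beta peaks were modest, with a median of 88.3, and 4 of 12 reached 100.

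The beta peaks were unevenly placed. The last 90 kb of the array held 9 of the 14 and the middle 90 kb held 1. Between 37504244 and 37595863, 91.6 kb had no peak in either library. Where peaks were close they stood 4.15 to 7.77 kb apart, and 8 of the 13 distances were under 10 kb.

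The gamma array, which holds the Pcdhga, Pcdhgb and Pcdhgc genes, had the densest and widest peaks of shDnmt3L. The middle 70 kb held 8 peaks with 37.0 kb covered, against 3 peaks and 5.68 kb in shGFP. The midpoints of these 8 shDnmt3L peaks stood 3.96 to 10.5 kb apart, with a coefficient of variation of 0.330. The alpha row was thus not alone in a low value, but this one rests on 7 distances and has no background. The coefficient was 0.521 in the first 70 kb of gamma and 0.809 in the last 90 kb of beta. Over whole arrays it was 1.32 in alpha, 1.29 in beta and 0.978 in gamma, against 1.34 in the flanks. When shDnmt3L peaks at most 3 kb apart were joined, a distance chosen after the values were seen, 6 of them formed a group from 37890239 to 37928492. They covered 30.3 kb of its 38.3 kb, or 79.3%. The shGFP list had 1 peak in this group, of 1529 bp.

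The 2 widest peaks of the locus stood side by side in that group. The first, from 37901376 to 37910263, measured 8888 bp, scored 605.7 and had no shGFP partner, the nearest being 8130 bp away. The second, from 37911609 to 37920389, was 8781 bp wide and scored 654.2, the best of the array. Its shGFP partner, from 37918394 to 37919922, measured 1529 bp, scored 59.24 and covered 17.4% of it. Both shDnmt3L peaks were wider than 99.2% of their list, and neither reached 10 kb.

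Another gamma group, from 37839855 to 37856901, was made of 4 unshared peaks with 11.7 kb covered and no shGFP peak. It included the peak from 37853441 to 37856901, among the 3 best-scoring unshared ones of gamma, which scored 177.7 and was 3461 bp wide. Another of these 3, from 37890239 to 37893952, scored 208.5 and was 3714 bp wide. The last 70 kb of the array held 2 shGFP and 3 shDnmt3L peaks, with 4.19 and 8.41 kb covered. The strongest shGFP peak of gamma, from 37971668 to 37973725, scored 499.9 and was 2058 bp wide, and its partner was 2141 bp wide with a score of 557.1. The last pair of the array was 2129 bp wide in shGFP and 3340 bp in shDnmt3L.

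**Figure D3:**
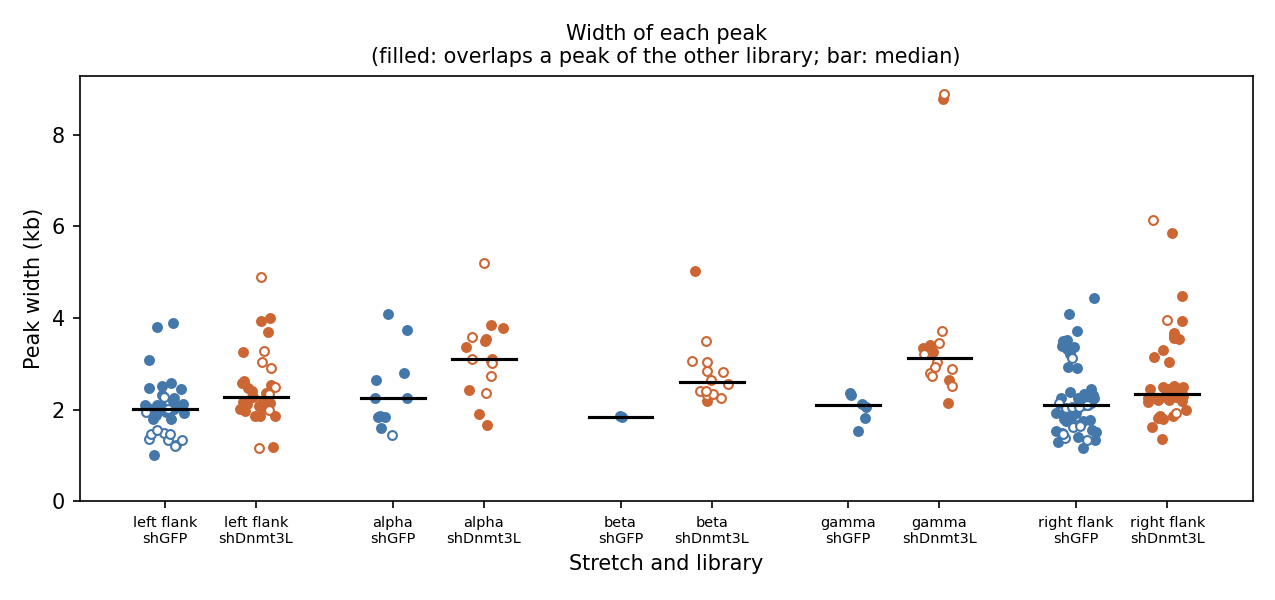
Width of every peak (kb) by stretch and library. Filled points overlap a peak of the other library, open points do not, and bars are medians. The array medians of shDnmt3L are 3104, 2594 and 3117 bp for alpha, beta and gamma, above the shGFP medians of 2261, 1848 and 2094 bp, and the 2 gamma peaks above 8 kb stand apart.

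Peaks of the locus were wider in shDnmt3L than in its flanks or its list. The median was 3030 bp (quartiles 2529 and 3445 bp), against 2326 bp in the flanks and 2376 bp over the list. In shGFP the median was 1902 bp (1830 and 2320 bp), against 2062 and 1998 bp. Of 18 one-to-one pairs, 17 had the wider peak in shDnmt3L, against 81.7% of all such pairs, so this count is close to what the lists show everywhere. The size of the difference was larger here, with a median of 624 bp (quartiles 122 and 1381 bp), against 145 bp over 37952 pairs and 110 bp over 66 pairs in the flanks. At least 1.5 times the control width was reached by 6 of 18 pairs, against 8.6% of all pairs. These were 2 of 10 in alpha, 1 of 2 in beta and 3 of 6 in gamma.

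In beta and gamma the extra width lay mostly at the lower-coordinate end of the pair, the end toward the first gene of the array. Over the 3 arrays, the shDnmt3L start lay at least 500 bp before the shGFP start in 8 of 18 pairs, against 8.59% of all pairs. Its end lay at least 500 bp beyond the shGFP end in 3 of 18, against 8.51%. All 8 pairs of beta and gamma had the longer extension at the lower end. In gamma the median was 909 bp at the lower end and 48 bp at the higher, whereas in alpha it was 84.5 and 206 bp. The largest lower-end extensions were 6785 bp in gamma and 3117 bp in beta, with 467 and 84 bp at the other end. Over all pairs the medians were 32 bp at either end. The 1 pair narrower in shDnmt3L was in alpha, with 4079 bp in shGFP and 3368 bp in shDnmt3L, and it lost 743 bp at the lower end.

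**Figure D4:**
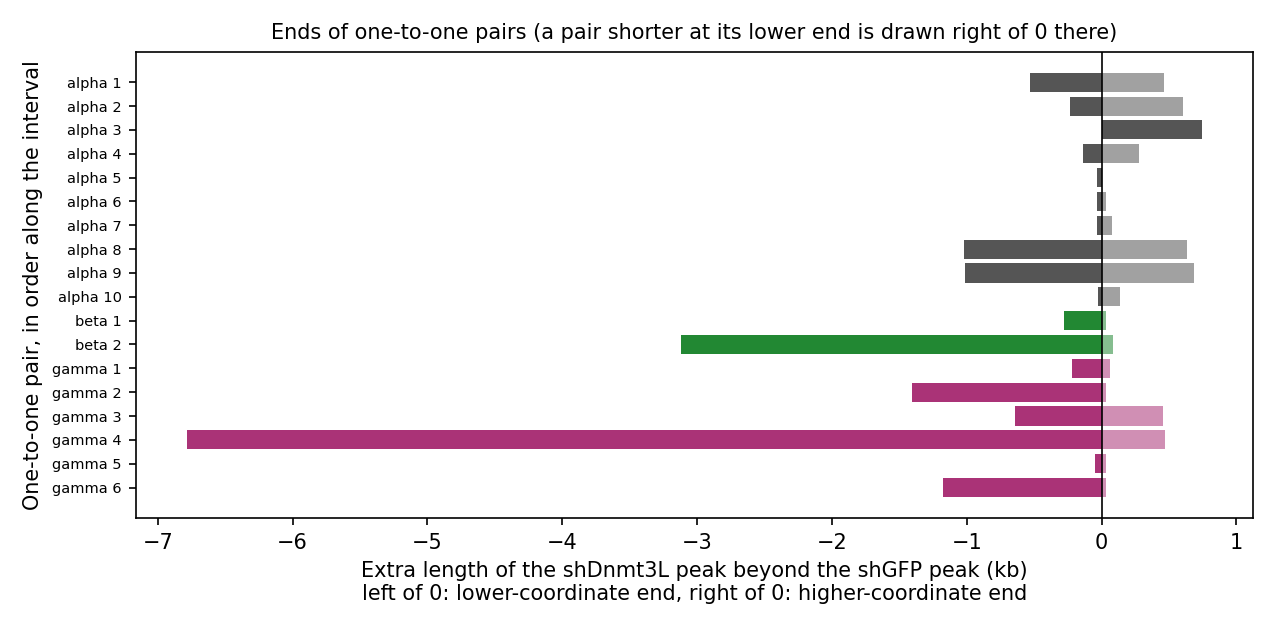
Extra length of the shDnmt3L peak beyond its shGFP partner (kb) for the 18 one-to-one pairs, in order along the locus, with the lower-coordinate end drawn to the left (dark) and the higher-coordinate end to the right (pale). In alpha the longer extension is to the left in 4 of 10 pairs and to the right in 5, and in the 8 beta and gamma pairs they are longer to the left, up to 6785 bp.

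Spacing, which within fixed bounds depends on peak number, separated the libraries as number did. Within the arrays, neighbouring midpoints were a median of 6.83 kb apart in shDnmt3L and 10.2 kb in shGFP. The flanks had 12.0 and 12.4 kb. The whole lists, with every distance on each chromosome, had 16.2 and 14.4 kb. In shDnmt3L the array medians were close to each other, 6.83 kb in alpha, 7.62 kb in beta and 5.96 kb in gamma. In shGFP they were 8.85 kb over 10 distances in alpha, 46.8 kb for the single distance in beta and 37.5 kb over 5 in gamma. Distances under 10 kb made up 30 of 43 in shDnmt3L, against 34.6% of its list, and 9 of 17 in shGFP, against 38.7%, with 1 of these 9 between beta and gamma. In the flanks they made up 34 of 76 in shDnmt3L and 38 of 89 in shGFP.

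**Figure D5:**
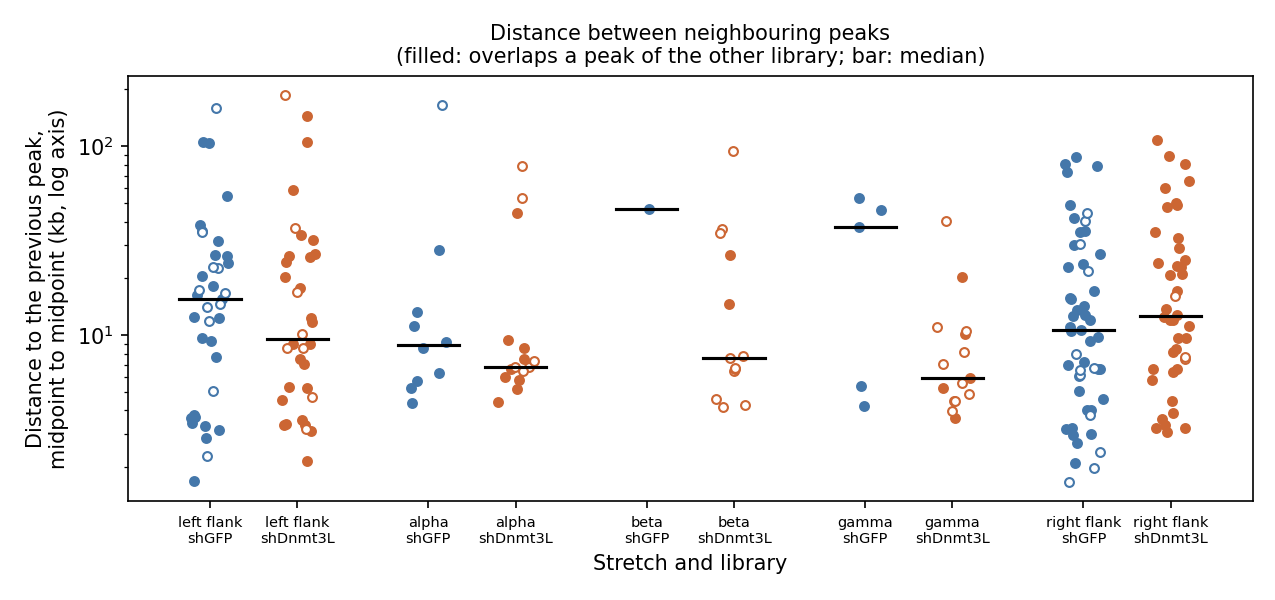
Distance from each peak to the previous one in the same stretch, midpoint to midpoint (kb, log axis), by stretch and library, with medians as bars. Points are filled where the later peak overlaps a peak of the other library. The alpha distances of shDnmt3L gather around a median of 6.83 kb, and beta of shGFP has a single distance of 46.8 kb.

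Some stretches of the locus were free of peaks in both libraries. The longest ran from 37682635 to 37777183, from the last beta peak to the first peak between beta and gamma, and was 94.5 kb long. Others of 75.1 and 74.7 kb lay inside the alpha array, from 37173687 to 37248755, and from the last alpha peak to the first beta peak, from 37349255 to 37423970. The added shDnmt3L peaks were thus spread over all 3 arrays but not over the whole interval.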

How the data were processed

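Each of the 2 libraries had 1 peak list with position, peak name and score. Per the submitters' processing notes, CASAVA 1.8, Bowtie 0.12.7 and MACS 1.4.1 were used, with the build mm9. The sources used here do not give their roles, an input control, duplicate handling or read depth. The score is the value the authors deposited for each peak. The other deposited columns are the start and end of each peak.

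Starts were counted from 1. Peaks were shared when they overlapped by at least 1 bp, and one-to-one pairs were those in which neither peak overlapped another. The work was done in Python 3.11.15 with scipy 1.17.1, pandas 2.3.3 and numpy 2.4.6, and figures with matplotlib 3.10.9. The code for overlap, merging, covered length and nearest distance was tested on a random part of the shGFP list and a toy list. Intervals are 95% and cover counting error only, and they treat neighbouring peaks as independent.

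The locus, its lists and its measures were chosen with earlier results of these data known. Named peaks were, in each array, the 3 best-scoring unshared, the widest and the best-scoring shared shDnmt3L peaks, the unshared shGFP peaks and the longest unshared run. Others named were chosen after their values were seen. Alternatives were a score of 100 or more, lists of equal length, merging, other overlap rules, array bounds, flanks, distances and window sizes. Promoter CpG and CGCT counts were planned and not made here.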

Additional observations from a re-analysis of the deposited data

How the results depend on the processing

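Of 82 alternative values, 75 stayed within the range set for them (1.5 times for ratios, medians and window shares, the Wilson interval for shares of peaks), 7 moved and 0 reversed. Only ratios of 2 or more in the main setting could be called reversed. Some values could not change, such as the shDnmt3L width and spacing when only the shGFP list was cut, so these counts overstate stability. All 35 ratios of number or covered length in the interval and its arrays stayed above 1. They reuse the same peaks at a locus chosen by its ratio of peak numbers, and several repeat the main value. This tally is therefore no separate support. When only peaks scoring 100 or more were kept in either list, the beta ratio of peak number was 3 in place of 7 and that of covered length 5.20 in place of 10.7. The gamma ratios became 15 in place of 2.67 and 27.8 in place of 4.89, and 93.3% of gamma shDnmt3L peaks (14 of 15) had no shGFP partner in place of 62.5%, since 1 of the 6 shGFP peaks of gamma scored 100 or more. The share of windows with at least 2 times the peak number was 0.624% at 500 kb and 1.63% at 100 kb, in place of 0.975%. The order of the beta and gamma ratios thus depended on the minimum score. No paired analysis was possible because there was 1 library per group, and no replicate could be left out. Read depth is unknown, and its part in the differences was not tested.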

Other observations

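Among 3365 windows of 500 kb, the window on chromosome 18 from 37500001 to 38000000, over beta and gamma, held 19 shDnmt3L peaks without a shGFP peak, and no other window held as many. At 250 kb, the window from 37750001 to 38000000 held 10, a number that 3 of 5233 windows reached, itself included. The locus had been chosen for its peak numbers, so these ranks describe it and support nothing further.

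Over the whole lists, shGFP held 89 runs of 5 or more neighbouring unshared peaks, with a median span of 175 kb. The 25 shDnmt3L runs of that length had a median span of 50.1 kb, and the 2 in the beta array spanned 185 and 28.8 kb.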
